A study of Mus musculus with 10 samples.

Results

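Transcripts of the transforming growth factor beta (TGF-beta) receptors and of the SMAD proteins that carry their signal were examined in macrophages sorted from the small intestinal lamina propria of mice, 24 h after a sham operation or permanent middle cerebral artery occlusion (pMCAO), a model of ischaemic stroke. The 9 genes were Tgfbr1, Tgfbr2, Tgfb1, Smad2, Smad3, Smad4, Smad7, Ski and Skil, matched by gene symbol among the 17279 genes of the deposited count table. All 9 were found and all 9 passed the filter on low counts, which left 16949 genes to be tested. Tgfbr1 was chosen by its higher counts after pMCAO in these same libraries, so its values are given as a description without a test. The other 8 genes were listed because they belong to the same pathway.

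The sham group held 5 libraries and the pMCAO group 5. Every library carries the genotype label C57BL6/J, and cells had been sorted for a CX3CR1-GFP signal, so both groups share the reporter that the sort used. The reporter allele and the age and sex of the mice are not given in the sources used here. The names of sham replicate 1 and pMCAO replicate 1 mark them as pools, and the other names carry no such mark. The labels call the libraries biological replicates.

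TGF-beta signals through a pair of serine/threonine kinase receptors. The ligand binds the type II receptor, TGFBR2, which recruits and phosphorylates the type I receptor, TGFBR1, and TGFBR1 then phosphorylates the receptor-regulated SMADs, which enter the nucleus with the common partner SMAD4. SMAD7 blocks the receptor in a negative feedback loop, and SKI and its relative SKIL (SnoN) hold SMAD complexes in a repressed state in the nucleus. In the gut, TGF-beta is known for restraining inflammatory responses and for supporting the maturation of monocytes into resident macrophages.

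Because the comparison of both receptor genes is the one the values below turn on, the RefSeq sequences around their starts (GRCm38.p6, 250 bases before to 50 bases after the start, on the strand of the gene) are shown here. Capitals mark GGGCGG, the core of a GC box, or CAGAC, a short SMAD-binding motif, each searched on both strands and with no overlap between these matches. The window of Tgfbr1 is chr4:47352972-47353271 on the plus strand and that of Tgfbr2 is chr9:116175314-116175613 on the minus strand.
Tgfbr1: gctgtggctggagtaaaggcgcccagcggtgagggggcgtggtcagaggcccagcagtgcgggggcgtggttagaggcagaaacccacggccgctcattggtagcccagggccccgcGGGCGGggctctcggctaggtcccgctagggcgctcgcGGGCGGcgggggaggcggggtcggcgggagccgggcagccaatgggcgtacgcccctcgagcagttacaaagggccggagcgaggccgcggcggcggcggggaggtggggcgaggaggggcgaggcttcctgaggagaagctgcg
Tgfbr2: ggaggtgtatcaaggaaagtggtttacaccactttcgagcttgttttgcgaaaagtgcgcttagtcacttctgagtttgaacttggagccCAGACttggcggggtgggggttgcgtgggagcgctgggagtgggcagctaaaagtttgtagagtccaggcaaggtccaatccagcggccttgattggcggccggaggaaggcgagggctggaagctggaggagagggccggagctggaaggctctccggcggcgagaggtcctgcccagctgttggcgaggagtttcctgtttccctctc
The Tgfbr1 window held 2 matches to GGGCGG and 0 to CAGAC, and the Tgfbr2 window held 0 and 1. Of 32851 RefSeq promoter windows of this length, 35.7% held GGGCGG and 49.6% held CAGAC. The GC content was 74.7% for Tgfbr1 and 59.0% for Tgfbr2, against a median of 52.7% over the windows searched. RefSeq lists another start of Tgfbr1 farther downstream, whose window (not shown) held 0 matches to GGGCGG and 1 to CAGAC, as that of Tgfbr2 did, with a GC content of 52.0%. The matches describe letters only.

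Total counts ranged from 18894151 to 60665972 in the sham libraries and from 6430643 to 28672285 in the pMCAO libraries. Each member had at least 144 counts in every library, the lowest being Smad7 in pMCAO replicate 3. All 11 macrophage markers, among them Adgre1, Csf1r, Mertk and the gate gene Cx3cr1, were detected in every library, and their summed level ranged from 4071 to 8814 CPM (counts scaled to the library total) in sham and from 5097 to 8966 CPM after pMCAO. Markers of B and plasma cells ranged from 692 to 22571 CPM in sham and from 988 to 25328 CPM after pMCAO, so that RNA of other cells was present in amounts that differed between libraries of the same group. Xist, which female cells transcribe, reached 2237 CPM for sham replicate 5 and 4686 CPM for pMCAO replicate 4, whereas the other 8 libraries had at most 4.88 CPM.

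Of the receptors, the type I receptor was higher after pMCAO and the type II receptor was at the same mean level in both groups. Tgfbr1 (ENSMUSG00000007613, chromosome 4, 47353222 to 47414931, plus strand) was at 258, 278, 343, 293 and 277 CPM in sham replicates 1 to 5 and at 547, 427, 387, 639 and 394 CPM in pMCAO replicates 1 to 5. Here and below, unless stated otherwise, CPM are scaled with trimmed mean of M values (TMM) factors, which correct library totals for differences in composition. All 5 pMCAO libraries lay above the highest sham library, and pMCAO replicates 1 and 4 were the highest. The means were 290 ± 32.2 CPM in sham and 479 ± 110 CPM after pMCAO (SD, n = 5 each), a fitted log2 fold change of 0.72 that was higher than that of 92.0% of the genes tested. Complete separation in this direction was found for 76 of 16949 genes (0.448%), and separation in the other direction for 91 (0.537%). Since Tgfbr1 was picked for this contrast, nothing is read from its rank among the genes tested or from these shares. Of the other 8 members 0 were separated either way.

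Tgfbr2 (ENSMUSG00000032440, chromosome 9, 116084293 to 116175360, minus strand) was at 180, 179, 222, 189 and 141 CPM in sham replicates 1 to 5 and at 178, 158, 178, 250 and 148 CPM in pMCAO replicates 1 to 5. The groups overlapped throughout, and only pMCAO replicate 4 exceeded the highest sham library. The log2 fold change of Tgfbr2 was 0.0042 (95% interval from −0.38 to 0.39), with a false discovery rate (FDR) of 0.999 in edgeR's quasi-likelihood test. Over all genes, 0 of 16949 (0%) passed an FDR of 0.05 and 799 (4.71%) had an unadjusted p under 0.05, and of the 8 members that were tested 0 did either.

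**Figure D1:**
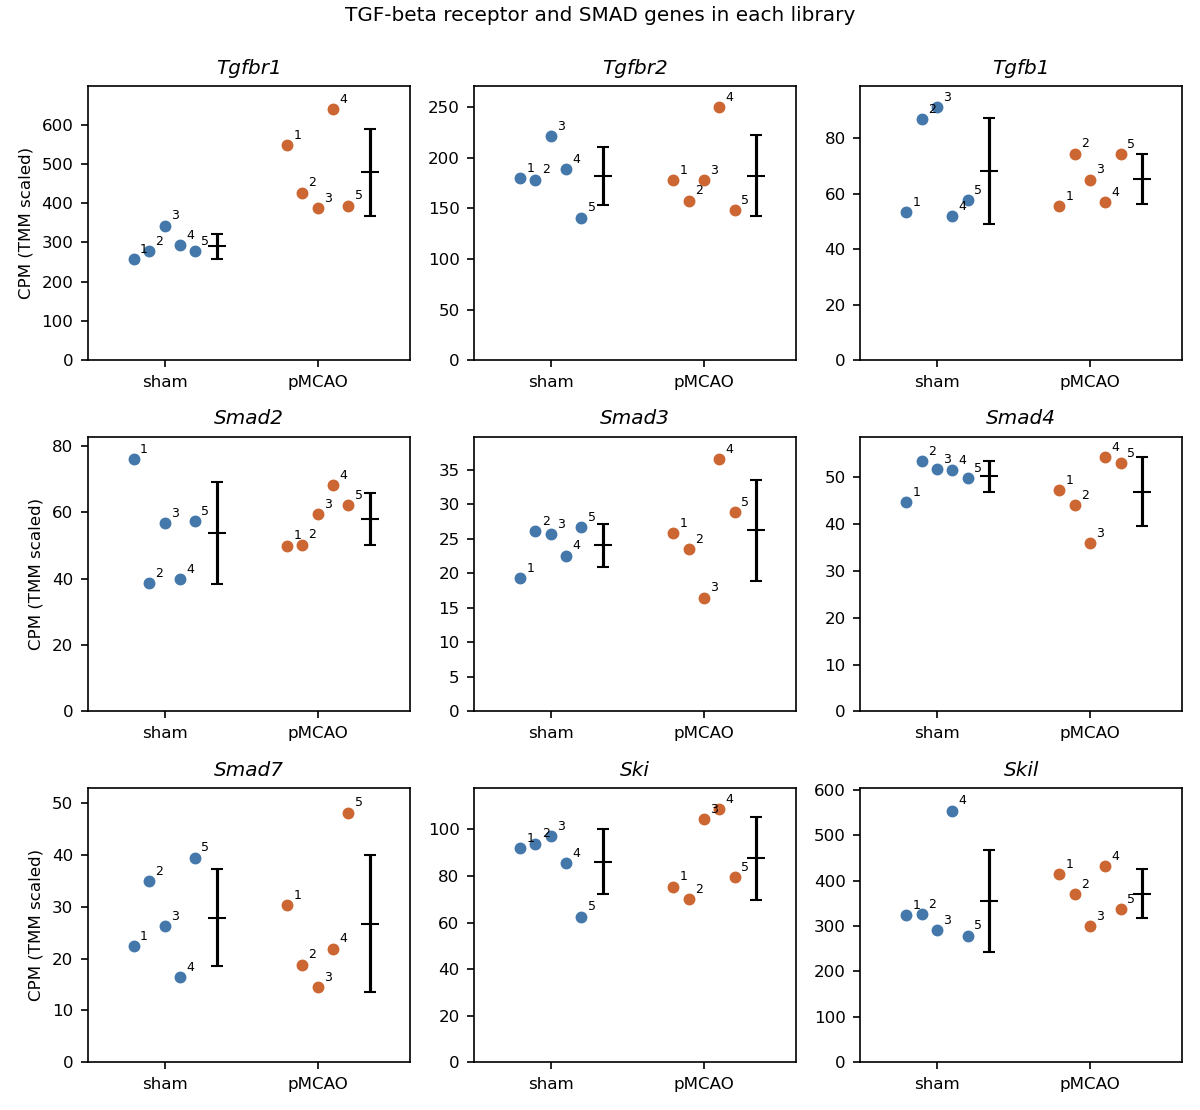
TMM-scaled CPM (vertical axes, starting at 0) of the 9 genes in the 5 sham and 5 pMCAO libraries, with replicate numbers beside the points and black bars for mean ± SD. The groups are apart for Tgfbr1, which was picked for its rise, with sham at 258 to 343 CPM and pMCAO at 387 to 639 CPM. They overlap for the other 8 genes.

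Within each library the balance of both receptor transcripts was also compared, since a ratio inside a library does not depend on how libraries are scaled. The ratio of Tgfbr1 to Tgfbr2 counts was 1.44, 1.55, 1.55, 1.55 and 1.97 in sham replicates 1 to 5, and 3.07, 2.70, 2.17, 2.56 and 2.66 in pMCAO replicates 1 to 5. No pMCAO library reached down to the sham range, and sham replicate 5 was the nearest to it. On the log2 scale the ratio was 0.68 ± 0.17 in sham and 1.39 ± 0.18 after pMCAO (SD, n = 5 each), a difference of 0.71. This difference uses the Tgfbr1 contrast and is likewise given without a test. In bulk RNA, a change in the share of cells that carry more of a transcript and a change in RNA per cell cannot be told apart.

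**Figure D2:**
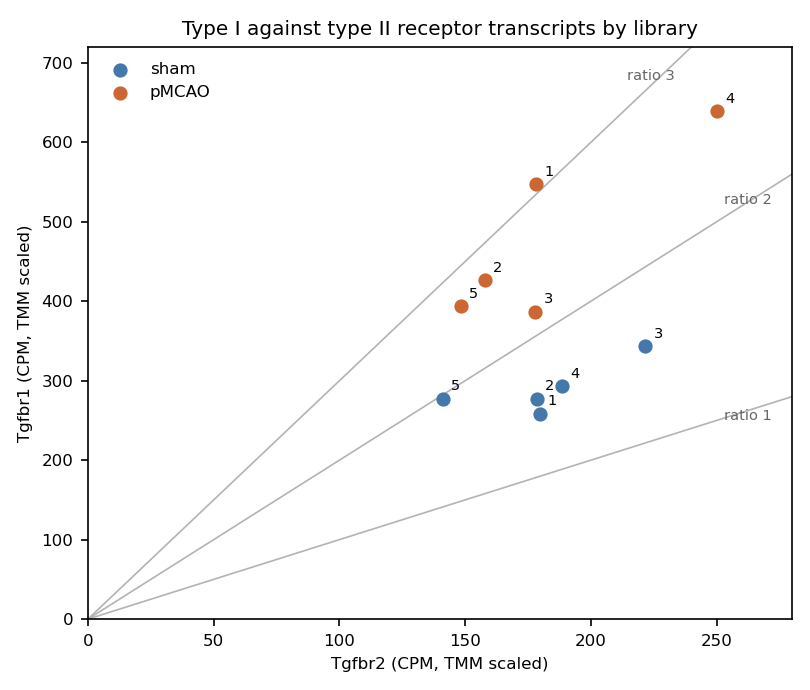
Tgfbr1 against Tgfbr2 in each library, both in TMM-scaled CPM, with grey lines for ratios of 1, 2 and 3 and replicate numbers beside the points. All sham points lie below a ratio of 2 and all pMCAO points above it.

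The size of the Tgfbr1 difference depended on the libraries included. Without pMCAO replicate 4 the log2 fold change was 0.59, and without sham replicate 5 and pMCAO replicate 4, the libraries with Xist counts, it was 0.58. Without both pooled libraries it was 0.63. With all 4 of these libraries left out, an alternative added after the values were seen, it was 0.41, with sham at 278 to 343 CPM and pMCAO at 387 to 427 CPM. In that subset Tgfbr2 was at −0.28, and the log2 difference of the receptor ratio was 0.69. The separation of the groups also depended on the scaling. Scaled to total counts, pMCAO replicate 3 was at 339 CPM, below sham replicates 3 and 5 at 350 and 353 CPM, while the fitted log2 fold change on that scale was 0.74.

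**Figure D3:**
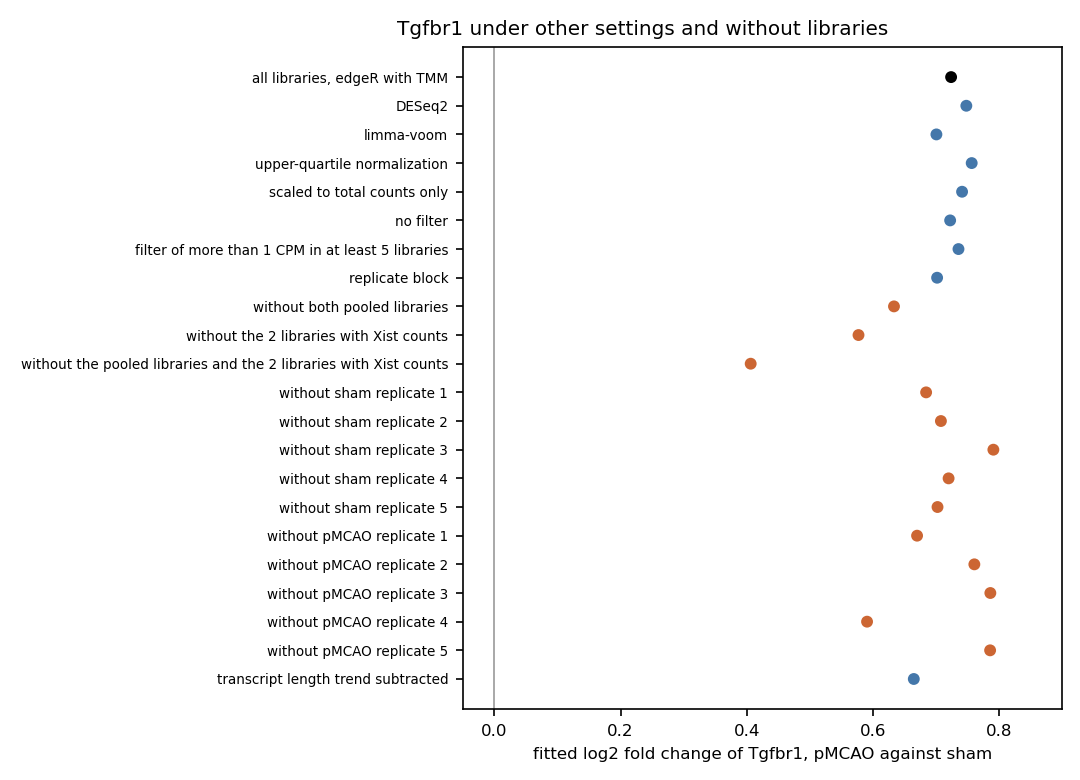
Fitted log2 fold change of Tgfbr1, pMCAO against sham (horizontal axis), for all libraries with edgeR and TMM (black), for other tools, scalings and filters (blue) and with libraries left out (orange). The values lie between 0.41 and 0.79, and the lowest is the one without the pooled libraries and the 2 libraries with Xist counts.

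The highest Tgfbr1 values after pMCAO were in replicates 1 and 4, which had 6430643 and 11605371 counts in all, against medians of 33913980 counts in sham and 11605371 after pMCAO. The lowest pMCAO value (387 CPM) was in replicate 3, which had 11299863 counts, fewer than replicate 4. The 4 detected markers of mast cells and eosinophils (Mcpt1, Cpa3, Kit and Prg2; Epx was not listed) summed to 994 to 13665 CPM in sham and 245 to 4097 CPM after pMCAO, scaled to total counts. Mcpt1, a mast cell protease, made up most of this, with medians of 3642 CPM in sham and 714 CPM after pMCAO. The median of the macrophage marker sum was 6856 CPM in sham and 6912 CPM after pMCAO, but its members went different ways. Medians were higher after pMCAO for Mertk (136 CPM in sham and 220 CPM after pMCAO), Csf1r (1013 and 1276 CPM), Cx3cr1 (126 and 169 CPM) and Itgam (601 and 739 CPM), and lower for the complement genes C1qa (373 and 331 CPM), C1qb (1979 and 1882 CPM) and C1qc (1229 and 1030 CPM). The part of depth, of mast cell RNA and of the makeup of the macrophages in the Tgfbr1 values was not tested.

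The ligand gene Tgfb1 (chromosome 7, 25687002 to 25705077, plus strand), which encodes the form of TGF-beta made by most immune cells, ranged from 52.0 to 91.0 CPM in sham (median 57.5) and from 55.6 to 74.3 CPM after pMCAO (median 65.0). Sham replicates 2 and 3 were the highest of all 10 libraries, and every pMCAO library lay inside the sham range. The log2 fold change of Tgfb1 was −0.062 (95% interval from −0.50 to 0.37, FDR 0.978, edgeR).

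Among the SMADs that carry the signal, none passed the test. Smad2, on chromosome 18, encodes a SMAD that TGFBR1 phosphorylates, and was at 53.7 ± 15.4 CPM in sham and 58.0 ± 7.89 CPM after pMCAO (SD, n = 5 each). Its log2 fold change was 0.11 (95% interval from −0.33 to 0.55, FDR 0.962, edgeR). Every pMCAO value of Smad2 lay inside the sham range, which ran from 38.6 to 76.1 CPM. Smad3 (chromosome 9, 63646767 to 63757994, minus strand), the other SMAD that this receptor phosphorylates, was at 24.1 ± 3.11 CPM in sham and 26.2 ± 7.34 CPM after pMCAO (SD, n = 5 each), with a log2 fold change of 0.12 (95% interval from −0.35 to 0.59, FDR 0.957, edgeR). The pMCAO libraries were more spread than the sham libraries for Smad3, from 16.5 CPM in replicate 3 to 36.5 CPM in replicate 4. Smad4, the common partner, also on chromosome 18, had the smallest SD relative to its mean of all members in sham. It was at 50.3 ± 3.35 CPM in sham against 47.0 ± 7.42 CPM after pMCAO (SD, n = 5 each). Its log2 fold change was −0.097 (95% interval from −0.43 to 0.24, FDR 0.953, edgeR).

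The inhibitors likewise did not pass the test. Smad7, a feedback inhibitor that TGF-beta itself induces, was the most variable member, with a 3.31-fold range over the 10 libraries. It was at 22.5, 35.0, 26.2, 16.4 and 39.4 CPM in sham replicates 1 to 5 and at 30.3, 18.8, 14.6, 21.9 and 48.1 CPM in pMCAO replicates 1 to 5. Replicate 5 was the highest in both groups, and the groups overlapped. The log2 fold change of Smad7 was −0.060 with a 95% interval from −0.79 to 0.67 (FDR 0.989, edgeR), the widest interval of the members tested. Ski (chromosome 4, 155154075 to 155222592, minus strand) was at 86.2 ± 13.9 CPM in sham and 87.6 ± 17.7 CPM after pMCAO (SD, n = 5 each), with a log2 fold change of 0.023 (95% interval from −0.37 to 0.41, FDR 0.993, edgeR).

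Skil (chromosome 3, 31095058 to 31122577, plus strand), a repressor of SMAD complexes whose gene is itself a TGF-beta target, was at 324, 326, 291, 554 and 279 CPM in sham replicates 1 to 5. After pMCAO it was at 414, 370, 301, 431 and 337 CPM in replicates 1 to 5. Sham replicate 4 was the highest of all, and the other 4 sham libraries lay at or below 326 CPM while 4 of 5 pMCAO libraries lay above it. The log2 fold change of Skil was 0.062 over all libraries (95% interval from −0.39 to 0.51, FDR 0.979, edgeR) and 0.27 without sham replicate 4, where the FDR was also above 0.05. Without the pooled libraries and those with Xist counts it was −0.21.

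Levels of different genes were set side by side per kilobase of merged exons (GENCODE M21), as CPM per kilobase. In sham, Tgfbr1 stood at 44.4 ± 4.93, Skil at 36.6 ± 11.7, Tgfbr2 at 22.2 ± 3.52 and Ski at 15.5 ± 2.49 CPM per kilobase (SD, n = 5). Smad4 and Tgfb1 followed at 13.5 ± 0.902 and 13.5 ± 3.79, then Smad7 at 6.17 ± 2.06, Smad2 at 6.12 ± 1.75 and Smad3 at 4.35 ± 0.561 CPM per kilobase. The sham ranges overlapped between neighbours in this order, except between Skil and Tgfbr2 and between Tgfb1 and Smad7. After pMCAO Tgfbr1 was at 73.3 ± 16.9 and Skil at 38.2 ± 5.56 CPM per kilobase, with ranges from 59.2 to 97.9 and from 31.0 to 44.5, which no longer overlapped. The order rests on the transcript model, since with the longest transcript in place of merged exons Skil (52.8) stood above Tgfbr1 (50.4) and Tgfb1 (26.5) above Tgfbr2 (22.5) in sham.

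The members also differed in how they varied between libraries of the same group. After centring log2 CPM within sham and within pMCAO, Tgfbr1 went most closely with Tgfbr2 (Pearson's r 0.77 over 10 libraries), Smad3 (0.66) and Smad4 (0.56). It was unrelated to Smad2 (0.0028), Smad7 (−0.021) and Tgfb1 (−0.10). The closest pair among all members was Smad3 and Smad4 (0.94). These values are descriptions over 10 libraries that share depth and cell composition. Tgfbr1 and Tgfbr2 were both highest in replicate 3 among the sham libraries and in replicate 4 among the pMCAO libraries. Their correlation without these libraries was not computed.

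Beyond the 9 members, 99 other genes of the pathway were listed, of which 90 were in the table and 89 were tested. None rose or fell at an FDR of 0.05 (edgeR, background 0%), 52 had a log2 fold change above 0 and 37 below, and the median was 0.051, against −0.0059 over all genes tested. At an unadjusted p under 0.05 there were 6 of 89 (6.74%, against 4.71% of all genes), which are Acvr2a, Bmpr2, Itgav, Pmepa1, Id2 and Id3. Bmpr2, Itgav and Id2 were singled out after their values were seen. Each of these 6 had an FDR of 0.922. The count was 3 of 90 without sham replicate 2, 3 of 89 without pMCAO replicate 1 and 3 of 88 without both pooled libraries. Over all genes the counts in these fits were 602 of 17179, 627 of 17151 and 462 of 16914. In a fit that blocked on replicate numbers it was 13 of 89, against 1303 of 16949 over all genes.

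Of the 10 other receptors tested, 4 had log2 fold changes above 0 and 6 below. Acvr2a, a type II receptor for activins, was at 35.5 ± 5.37 CPM in sham and 55.6 ± 13.9 CPM after pMCAO (SD, n = 5 each, log2 fold change 0.65, standard error 0.20, FDR 0.922, edgeR). The groups overlapped narrowly, since the highest sham library was at 43.0 CPM and the lowest pMCAO library at 41.7 CPM. Bmpr2, the type II receptor for bone morphogenetic proteins, was at 220 ± 32.8 and 292 ± 70.4 CPM, with a log2 fold change of 0.41. Acvr1b, a type I activin receptor that shares its SMADs with Tgfbr1, had the lowest value of this list among genes of at least 10 CPM, at 29.9 ± 7.11 and 23.0 ± 5.35 CPM (log2 fold change −0.38).

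In the list of latency and activation genes, 9 of 14 had values above 0. Itgav, the integrin alpha chain that helps to release active TGF-beta from its latent complex, was at 190 ± 45.5 CPM in sham and 287 ± 65.0 CPM after pMCAO (SD, n = 5 each), with a log2 fold change of 0.59. Mmp2, a matrix metalloproteinase, had the highest log2 fold change among genes of at least 10 CPM (0.72) and Thbs1, an activator of latent TGF-beta, the lowest (−0.67), and both varied widely within groups, Thbs1 from 34.7 to 267 CPM in sham. Among ligand genes 7 were tested, and only Bmp2 reached a mean of 10 CPM (log2 fold change −0.66, standard error 0.76).

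Of 17 receptor regulators, 11 lay above 0. Pmepa1, a TGF-beta target that restrains SMAD activation, was at 45.4 ± 15.7 CPM in sham and 74.6 ± 30.3 CPM after pMCAO (SD, n = 5 each, log2 fold change 0.72), and Ppp1r15a, a stress-response phosphatase subunit, had the lowest log2 fold change of this list among genes of at least 10 CPM (−0.30). Of 18 other SMADs and nuclear partners, 12 lay above 0, between Ctbp1 (−0.29) and Zeb2 (0.26) among genes of at least 10 CPM. Zeb2 encodes a SMAD-interacting transcription factor and was at 1156 ± 297 CPM in sham and 1380 ± 371 CPM after pMCAO (SD, n = 5 each). The 7 genes of the branch that does not use SMADs lay between −0.024 (Rhoa) and 0.24 (Traf6) among those of at least 10 CPM.

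Among 16 target genes of the pathway, 7 had values above 0 and 9 below, with a median log2 fold change of −0.18. Id3, an inhibitor of DNA binding that bone morphogenetic proteins and TGF-beta regulate, was at 23.6 ± 7.05 CPM in sham and 12.4 ± 3.28 CPM after pMCAO (SD, n = 5 each, log2 fold change −0.93, standard error 0.26, FDR 0.922, edgeR). Its relative Id2 was on the other side of 0, at 93.1 ± 15.5 and 127 ± 31.5 CPM (log2 fold change 0.44). Tsc22d1 had the highest log2 fold change of the list (0.45), with sham from 58.6 to 136 CPM and pMCAO from 99.1 to 128 CPM. The targets did not go in a common direction, and 0 of the 16 passed the test.

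**Figure D4:**
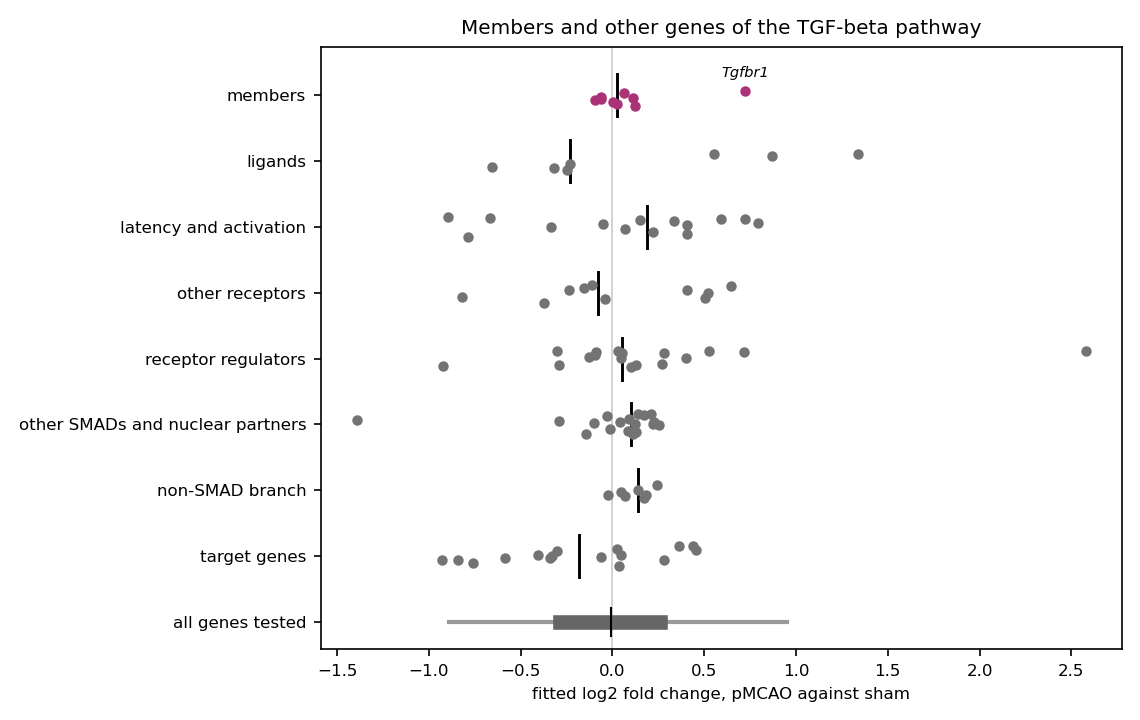
Fitted log2 fold changes, pMCAO against sham, of the 9 members (purple), of the other pathway genes by list (grey points) and of all genes tested (grey bars for the middle 50% and 90%), with black marks for medians. Tgfbr1, which was picked for its rise in this contrast, is at 0.72, and the other 8 members lie between −0.097 and 0.12. The point farthest right among the receptor regulators is Cav1, at means of 0.376 CPM in sham and 2.31 CPM after pMCAO.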

How the data were processed

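RNA sequencing libraries of sorted lamina propria macrophages were analysed from 5 sham and 5 pMCAO samples, grouped by the sample labels. The authors deposited raw read counts for each gene, and CPM values of their own, which equal the counts scaled to the sum over the listed genes within 0.0005 CPM and were not used further. The deposited table also holds the authors' fold changes, mean expression, p-values and FDR, which were not used. The submitters' processing notes name STAR, featureCounts and limma with GRCm38 (mm10). Versions, annotation and strandedness are not given in the sources used here, and the paper at hand describes other libraries.

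Counts were filtered with filterByExpr, scaled by TMM and tested with edgeR 4.0.16 in R 4.3.3 (quasi-likelihood test, no covariate, Benjamini-Hochberg adjustment over 16949 genes, FDR of at most 0.05, no limit on the fold change). Intervals are 95% intervals from the same fit. The p-values set the difference between groups against the spread between these libraries, which include the pooled ones. Log2 CPM used a prior count of 2. Alternatives were DESeq2 1.42.0, limma-voom (limma 3.58.1), other scalings and filters, the replicate number as a block, leaving out libraries, and subtracting a lowess trend on transcript length. The fitting steps were tested on simulated data. No 2 libraries of a group matched within sampling noise (the smallest chi-square was 39.2 times its degrees of freedom).

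The members, the lists and the alternatives were chosen with earlier results of these data known. Named genes are the 9 members and, per pathway list, the genes with the highest and lowest log2 fold change among those with a mean of at least 10 CPM. Gene positions and lengths come from GENCODE M21 on GRCm38, and RefSeq promoter windows matched 5 of the 9 members. Of the members, the annotation lists an overlapping gene only for Smad4, a pseudogene that shares 0 exon bases. Of the 3 genes that DESeq2 called, 1 is not reported here.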

Additional observations from a re-analysis of the deposited data

Results flagged for a closer look

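On the log2 scale, the highest or lowest library stood apart when its distance from the next one exceeded 0.71 of the whole spread in that group. This was so for 4 of 46 groups of 5 libraries, where chance flags about 1 in 20 groups (2.3 here), and the measures are not independent. Skil was highest in sham replicate 4, at 0.773 of that spread (554 CPM against at most 326 CPM in the other sham libraries). Ski was lowest in sham replicate 5, with a gap of 0.711 (62.6 CPM). The ratio of Tgfbr1 to Tgfbr2 was highest among sham libraries in sham replicate 5, with a gap of 0.751 (1.97), and this library carries Xist counts. Tsc22d1 was highest in sham replicate 4, with a gap of 0.712 (136 CPM).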

How the results depend on the processing

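With edgeR under every scaling and filter, with limma-voom, and with each library left out in turn, 0 genes passed an FDR of 0.05. DESeq2 called 3, among them Rbp7 and Tppp3 (named after their values were seen), with 1011 genes at an unadjusted p under 0.05. No member other than Tgfbr1, which was not tested, and none of the other pathway genes passed under any of these 20 alternatives. Tgfbr1 kept a positive log2 fold change under all 21 alternatives, between 0.59 and 0.79 when single libraries were removed, and 0.41 without the pooled libraries and the 2 libraries with Xist counts. After subtracting the trend on transcript length it was 0.66. The log2 difference of the receptor ratio stayed between 0.61 and 0.79. Tgfbr1 was picked for its rise in these same libraries, so nothing is read from the constant sign of either value. Among the other members the sign changed under at least 1 alternative for Tgfb1, Tgfbr2, Smad3, Smad7, Ski and Skil, all within −0.39 to 0.27. With the replicate block, 0 genes passed, 1303 had an unadjusted p under 0.05 and Tgfbr1 was at 0.70. Same-numbered libraries correlated from −0.0055 to 0.37 in their deviations from group means, with a mean of 0.20. Replicates 1 and 3 were under 0.1, so the numbers were not taken as pairs. Still, 5 of 10 libraries correlated best with their own number among the 5 libraries of the other group. The lowest count in any 1 library was 144 for Smad7 and 163 for Smad3, and the part of depth in their spread was not tested.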

Other observations

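The genes whose log2 CPM, centred within each group, went most closely with Tgfbr1 among 9045 genes with a mean of at least 10 CPM were Ccnh (Pearson's r 0.99 over 10 libraries), Ppp4r2 (0.92), Rnf115 (0.90), Stxbp5 (0.89) and Slc23a2 (0.89). Ccnh encodes cyclin H, a subunit of the kinase that activates other cyclin-dependent kinases, and Ppp4r2 a regulatory subunit of a protein phosphatase. The lowest was Rpl28-ps1, a ribosomal protein pseudogene (−0.93), whose reads may not be told apart from those of its parent gene. Ccnh was at means of 48.7 CPM in sham and 50.5 CPM after pMCAO (log2 fold change 0.052), and the log2 fold changes of the 5 lay between −0.13 and 0.29. With 10 libraries and this many genes, high values can arise among unrelated genes, and how high these would run was not tested. Libraries also share depth and cell composition.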
